A study of Danio rerio with 12 samples.

Results

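The 100 genes described here are those with the clearest gap between juvenile zebrafish testes and ovaries, out of 32520 genes in the count table. They were chosen by their CPM, the count of a gene per 1000000 counts in a gonad. Among the 11099 genes with at least 5 CPM in all 7 testes, the 100 with the largest value of (lowest testis CPM + 1) / (highest ovary CPM + 1) were taken. This value is called the separation ratio below. A separation ratio of 2 means that even the lowest testis had about 2 times the level of the highest ovary.

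The gonads came from juvenile zebrafish of the AB strain, a laboratory wild-type line. Every fish, whether it bore testes or ovaries, carried Tg(piwil1-egfp-nos3UTR)ihb327Tg, a transgene that makes germ cells fluoresce green. The groups were 30 dpf testes (n = 3), 25 dpf testes (n = 4), 30 dpf ovaries (n = 3) and 25 dpf ovaries (n = 2), where dpf stands for days post fertilization. Each sample was 1 gonad, sexed under the microscope, and its polyadenylated RNA was amplified as cDNA before sequencing, with a total count of 4471588 to 5331223 per gonad.

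A zebrafish gonad passes through an ovary-like juvenile stage in both sexes, and a testis forms as early oocytes are lost and somatic tissue expands around the remaining germ cells. That somatic tissue holds supporting (Sertoli) cells, steroid-producing (Leydig) cells, fibroblasts, blood vessels and contractile cells, in a matrix of fibronectin, collagens and laminins. Ligands of the TGF-beta family, such as anti-Müllerian hormone, and of the Hedgehog family carry signals between supporting, interstitial and germ cells in the vertebrate testis.

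The labels were first held against markers that define the tissues. The oocyte genes followed the labels in all 12 gonads. The egg envelope gene zp3 was at 2.79 to 136 CPM in testes, against 587 to 2538 CPM in ovaries. GDF9, a growth factor of the oocyte, was at 6.88 to 16.4 CPM in testes, against 42.9 to 91.5 CPM in ovaries. Bmp15 and zp2.1 were likewise lower in every testis than in every ovary. DDX4 (vasa), the common germ cell marker, was present in every gonad, at 304 to 439 CPM in testes, against 465 to 771 CPM in ovaries.

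The supporting cell genes did not follow the labels in every gonad. Anti-Müllerian hormone (amh) had 17.2, 549.6 and 1119 CPM in the 30 dpf testes and 14.4, 38.8, 14.8 and 9.79 CPM in the 25 dpf testes, against 22.4, 22.8 and 11.5 CPM in the 30 dpf ovaries and 19.2 and 29.9 CPM in the 25 dpf ovaries. Replicates 2 and 3 of the 30 dpf testes were far above the ovaries, replicate 2 of the 25 dpf testes was slightly above them, and the other 4 testes were below the highest ovary. Gsdf, another growth factor of supporting cells, was at 344 to 5571 CPM in testes, against 391 to 955 CPM in ovaries, with 4 of 7 testes above the highest ovary. DMRT1, a transcription factor of the testis, was above the highest ovary in 6 of 7 testes. The steroid enzyme gene cyp11c1 had 62.8, 199 and 388 CPM in the 30 dpf testes and 49.4, 51.6, 1.04 and 13.8 CPM in the 25 dpf testes, against 0.587 to 2.87 CPM in ovaries. Only replicate 3 of the 25 dpf testes lay in the range of the ovaries for it. CYP19A1, the aromatase that makes estrogens, did not separate the sexes, at 1.08 to 40.1 CPM in testes, against 6.80 to 47.5 CPM in ovaries. None of amh, gsdf, DMRT1, cyp11c1 and CYP19A1 is among the 100 genes.

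Other gonads stood apart through genes of neighbouring tissues. Replicate 1 of the 25 dpf testes held skeletal muscle RNA. The fast-muscle calcium buffer pvalb1 had 4076 CPM there, against 53.9 to 151 CPM in the other testes and 5.71 to 129.6 CPM in the ovaries. Skeletal actin ACTA1 (ENSDARG00000055618) had 6808 CPM there, against at most 109 CPM in any other gonad. Replicate 2 of the 25 dpf testes held pancreas and liver RNA, with 1714 CPM of trypsinogen prss1 and 2268 CPM of the apolipoprotein gene apoa2. Replicate 2 of the 30 dpf testes had 918 CPM of prss1. Apoa2 was at 143 CPM in the highest ovary. It was also above that level in replicates 1 and 4 of the 25 dpf testes, at 485 and 835 CPM. Replicate 1 of the 30 dpf testes had 192 CPM of it, and the remaining testes had 32.1 to 128 CPM.

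The summed level of a list of 28 fat, muscle, pancreas, liver and gut genes was 1549 to 19862 CPM in the testes, against 381 to 1677 CPM in the ovaries. Apart from replicate 3 at 25 dpf, every testis was above every ovary in this sum. This order leans on lipoprotein lipase (LPL), which is in the list. Its genes gave 1066 and 284 of 2339 CPM in replicate 1 of the 30 dpf testes. They gave 332 and 90.1 of 1677 CPM in replicate 1 of the 25 dpf ovaries, the highest ovary. None of the 28 genes is a member. The part of such tissue in the levels of the members was not tested. The choice of genes was repeated without each gonad in turn and without replicates 1 and 2 of the 25 dpf testes together.

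**Figure D1:**
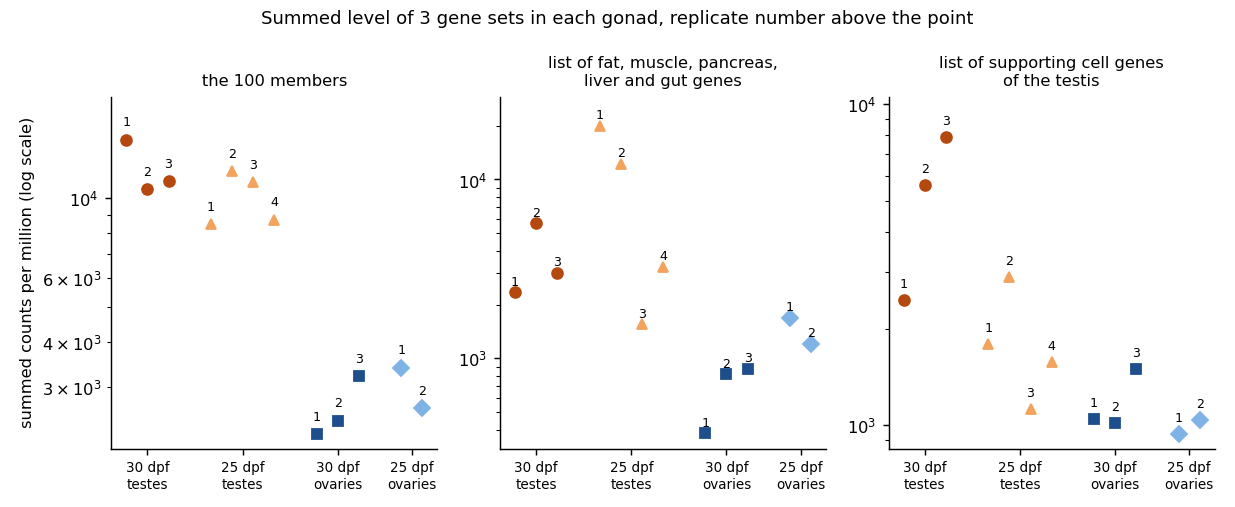
Summed CPM (log axis, a separate range in each panel) in each of the 12 gonads, with the replicate number at each point, for the 100 members, a list of 28 genes of neighbouring tissues and a list of 22 supporting cell genes of the testis. The members lie at 8474 to 14516 CPM in testes and at 2217 to 3388 CPM in ovaries without overlap, while the neighbour list peaks in replicates 1 and 2 of the 25 dpf testes and the supporting cell list in replicates 2 and 3 of the 30 dpf testes.

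The separation ratio of the 100 members was 1.84 to 3.84 with a median of 2.097. It was at least 2 for 62 members and at least 3 for 3 members. Of the 11099 genes past the minimum, 1968 (17.7%) had their lowest testis above their highest ovary, which all members do by the rule. In a whole gonad, fewer cells of a type and less RNA per cell cannot be told apart. The ratio of the testis mean to the ovary mean, with 1 CPM added to both, was 2.37 to 22.97 with a median of 3.71.

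The members were mostly genes of middle level. The testis mean was below 50 CPM for 52 of them, 50 to 200 CPM for 38 and 200 CPM or more for 10. In most of them the ovaries held a lower level rather than none, and 94 of the 100 had more than 3 counts in every gonad. The spread between gonads was near that of other genes. The coefficient of variation over the 7 testes had a median of 25.2% for members and 23.5% for all genes past the minimum, and over the 5 ovaries the medians were 26.0% and 24.1%. Among the members it ran over the testes from 8.17% for skib to 123.8% for MMEL1.

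Summed over all members, the level was 14516, 10600.0 and 11127 CPM in the 30 dpf testes and 8474, 11865.0, 11066 and 8709 CPM in the 25 dpf testes, against 2217, 2416 and 3203 CPM in the 30 dpf ovaries and 3388 and 2617 CPM in the 25 dpf ovaries. Neither testis with high amh was the highest in this sum. Replicate 3 of the 25 dpf testes, whose cyp11c1 lay among the ovaries, held the median position of the 7 testes. The members' extremes came mostly from a few gonads. The lowest testis was replicate 4 at 25 dpf for 37 members, where it was so for 9.6% of all genes past the minimum, and replicate 1 at 25 dpf for 23, where it was so for 22.9%. The highest ovary was replicate 1 at 25 dpf for 49 members, where it was so for 34.8% of all genes, and replicate 3 at 30 dpf for 26, where it was so for 22.1%.

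By what their products are known to do, the members were sorted, after they had been seen, into 9 groups. They comprised 11 genes of the extracellular matrix, 17 of transcription and chromatin, 13 of growth factor, Hedgehog, Notch and Wnt signalling, and 8 for adhesion and cell-surface receptors. A further 14 act in kinase signalling, cytoskeleton, polarity and trafficking, 15 are enzymes, transporters and channels, 3 are other secreted proteins, 15 have another or unknown role and 4 have no symbol. Members outside the naming rule (described with the methods) were picked from these groups after their values had been seen.

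No test of testes against ovaries is given for any member, since that difference chose them. As a description, all 100 were called higher in testes by edgeR's quasi-likelihood test (adjusted p under 0.05), where 21.3% of the 19292 genes tested were called higher in testes and 21.9% lower. That count follows from the rule, and nothing is read from it. The members' median log2 fold change was 1.78, and that of all genes was 0.13. With upper-quartile scaling in place of the trimmed mean of M values (TMM), 5057 genes were called higher in testes and 3530 lower, in place of 4108 higher and 4223 lower. The median of all genes was then 0.27.

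**Figure D2:**
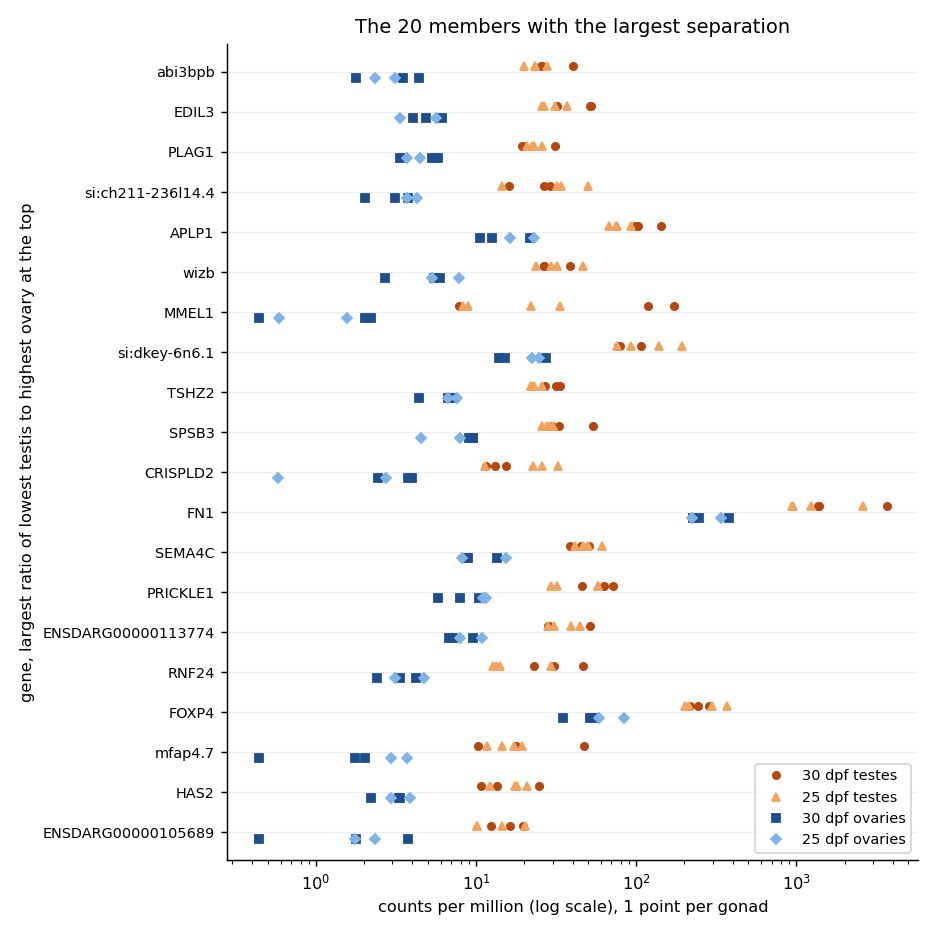
CPM (log axis) of the 20 members with the largest separation ratio, 1 point per gonad, testes drawn above ovaries in each row and ages told apart by shape and shade. In every row all 7 testes lie right of all 5 ovaries, the separation ratio falls from 3.84 for abi3bpb at the top to 2.35 for ENSDARG00000105689 at the bottom, and MMEL1 has the widest spread among testes.

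The 2 largest separation ratios belonged to genes of secreted matrix proteins, and the next ones to genes of other groups. The gene abi3bpb (ENSDARG00000071095), for a matrix protein of connective tissue, had 40.5, 25.9 and 25.4 CPM in the 30 dpf testes and 23.4, 27.8, 23.5 and 19.8 CPM in the 25 dpf testes, against 3.51, 1.78 and 4.42 CPM in the 30 dpf ovaries and 3.10 and 2.35 CPM in the 25 dpf ovaries. The testes lay close together except for replicate 1 at 30 dpf, which was higher, and the separation ratio was 3.84. EDIL3 (ENSDARG00000093413), a secreted ligand of integrins, had 51.4, 32.1 and 52.3 CPM in the 30 dpf testes and 26.4, 30.9, 37.2 and 25.7 CPM in the 25 dpf testes, against 6.15, 4.02 and 4.86 CPM in the 30 dpf ovaries and 5.63 and 3.33 CPM in the 25 dpf ovaries. Its separation ratio was 3.74, and its 2 highest testes were both from 30 dpf.

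Fibronectin, the protein that seeds the fibres of new matrix, is the product of the most abundant member, FN1 (ENSDARG00000006526). FN1 had 3686, 1379.9 and 1366 CPM in the 30 dpf testes and 954, 2618, 939 and 1229 CPM in the 25 dpf testes, against 247, 227 and 381 CPM in the 30 dpf ovaries and 337 and 222 CPM in the 25 dpf ovaries. The groups did not overlap, but the testes ranged widely. The 2 highest testes, replicate 1 at 30 dpf and replicate 2 at 25 dpf, were not those with high amh. Replicate 2 at 25 dpf was also the testis with the most pancreas and liver RNA, and the part of that tissue in its FN1 level was not tested. Replicate 3 at 25 dpf, with the lowest sum of the neighbouring tissue list among testes, had 939 CPM of FN1, the lowest level of all testes. Replicate 1 at 25 dpf, with the highest such sum (19862 CPM), had 954 CPM of FN1. Replicate 1 at 30 dpf, with the highest FN1, had a sum of 2339 CPM. That the lowest FN1 level of the testes was above every ovary follows from the rule.

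Other secreted matrix genes had lower levels and a gap of similar size. CRISPLD2 (ENSDARG00000088595), a secreted glycoprotein, was at 11.4 to 32.4 CPM in testes, against 0.582 to 3.95 CPM in ovaries. The gene mfap4.7 (ENSDARG00000092806), of a fibril-associated family with several copies in the genome, was at 10.3 to 47.5 CPM in testes, against 0.442 to 3.69 CPM in ovaries. HAS2 (ENSDARG00000036987), the synthase of the matrix sugar hyaluronan, was at 10.7 to 24.7 CPM in testes, against 2.19 to 3.88 CPM in ovaries. The highest testis differed from gene to gene, with replicate 3 at 25 dpf highest for CRISPLD2, replicate 2 at 30 dpf for mfap4.7 and replicate 3 at 30 dpf for HAS2.

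The remaining matrix members are structural. EFEMP2 (ENSDARG00000020811), a fibulin needed for elastic fibres, had 99.96, 55.0 and 54.0 CPM in the 30 dpf testes and 48.6, 60.2, 33.9 and 35.7 CPM in the 25 dpf testes, against 9, 6.03 and 8.61 CPM in the 30 dpf ovaries and 11.5 and 14.1 CPM in the 25 dpf ovaries. Replicate 1 at 30 dpf stood highest, as it did for FN1. COL5A1 (ENSDARG00000012593), a collagen that sets the width of fibrils, had 571, 293 and 550.3 CPM in the 30 dpf testes and 298, 374, 497 and 286 CPM in the 25 dpf testes, against 78.6, 70.07 and 132 CPM in the 30 dpf ovaries and 142 and 100.4 CPM in the 25 dpf ovaries. The highest ovary of COL5A1 and of FN1 differed, but both lay in the pair of ovaries with the highest member sums. The gene lama4 (ENSDARG00000020785), for a laminin chain of vascular and muscle basement membranes, had 463, 283 and 297 CPM in the 30 dpf testes and 258, 353, 361 and 318 CPM in the 25 dpf testes, against 92.9, 88.8 and 138 CPM in the 30 dpf ovaries and 136 and 96.1 CPM in the 25 dpf ovaries. Its testes spanned less than the testes of FN1. The gene col6a4a, for a chain of the beaded-filament collagen VI, was at 123 to 274 CPM in testes, against 26.6 to 53.8 CPM in ovaries. SRPX2, a secreted protein with sushi repeats, was at 7.49 to 19.9 CPM in testes, against 0.893 to 3.49 CPM in ovaries. Summed over the 11 matrix members, the level was 1813 to 5235 CPM in testes, against 436 to 714 CPM in ovaries.

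Transcription factors and chromatin proteins formed the largest group. PLAG1 (ENSDARG00000051926), a zinc finger activator that acts as an oncogene in human salivary tumours, had 31.1, 19.5 and 19.7 CPM in the 30 dpf testes and 20.8, 22.9, 26.0 and 22.3 CPM in the 25 dpf testes, against 5.27, 3.35 and 5.74 CPM in the 30 dpf ovaries and 4.46 and 3.72 CPM in the 25 dpf ovaries. Its testes were close together, and its ratio of 3.035 was the third largest. The gene wizb (ENSDARG00000102436), whose mammalian counterpart WIZ binds the G9a histone methyltransferase, had 38.7, 26.7 and 26.4 CPM in the 30 dpf testes and 31.8, 29.4, 46.5 and 23.8 CPM in the 25 dpf testes, against 5.49, 2.68 and 5.96 CPM in the 30 dpf ovaries and 7.76 and 5.28 CPM in the 25 dpf ovaries. Replicate 3 at 25 dpf was its highest testis. FOXP4 (ENSDARG00000076120), a forkhead repressor, had 216, 283 and 244 CPM in the 30 dpf testes and 215, 297, 369.6 and 203 CPM in the 25 dpf testes, against 34.9, 51.3 and 54.3 CPM in the 30 dpf ovaries and 83.6 and 58.7 CPM in the 25 dpf ovaries. It was the most abundant member of this group, and replicate 3 at 25 dpf was again the highest testis. TSHZ2 (ENSDARG00000079201), of the teashirt zinc finger family, was at 21.9 to 33.2 CPM in testes, against 4.39 to 7.57 CPM in ovaries.

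Further transcription factors were named from the group after their values had been seen. The homeodomain partners of the TALE class, which bind DNA together, were both members. The gene pbx1a was at 60.7 to 134 CPM in testes, against 13.4 to 30.3 CPM in ovaries. MEIS2 was at 21.7 to 52.1 CPM in testes, against 5.87 to 10.6 CPM in ovaries. FOXO1 (ENSDARG00000099555), a forkhead factor held in check by insulin signalling, was at 26.5 to 71.4 CPM in testes, against 6.41 to 11.8 CPM in ovaries. The next 2 factors are tied to signals from outside the cell. BHLHE40, a repressor linked to the circadian clock and low oxygen, was at 156 to 279.8 CPM in testes, against 43.5 to 75.7 CPM in ovaries. The gene ahr2, for the aryl hydrocarbon receptor that senses dioxins in zebrafish, was at 104 to 189.9 CPM in testes, against 34.9 to 47.4 CPM in ovaries. TCF12, a basic helix-loop-helix factor, was at 151 to 195 CPM in testes, against 42.6 to 69.9 CPM in ovaries, and its testes had 1 of the smallest spreads of all members. MEF2D, PHF2, ZBTB20, zbtb4, znf516, CREBRF and TBX1 complete the group. The separation ratios of the 17 genes were 1.86 to 3.035, and their summed level was 1093 to 1547 CPM in testes, against 265 to 434 CPM in ovaries.

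The signalling members included receptors and inhibitors of TGF-beta family signals, of which BMPR2 and TGFBR1 are in the list of growth factor genes and the others were grouped after they had been seen. BMPR2 (ENSDARG00000020057), a type II receptor for bone morphogenetic proteins (BMPs), had 109.6, 70.8 and 68.7 CPM in the 30 dpf testes and 55.9, 96.2, 60.9 and 58.2 CPM in the 25 dpf testes, against 18.2, 15.6 and 19.9 CPM in the 30 dpf ovaries and 24.8 and 17.4 CPM in the 25 dpf ovaries. Its separation ratio was 2.201, and replicates 1 at 30 dpf and 2 at 25 dpf stood above the other testes. TGFBR1 (ENSDARG00000042259), the type I receptor for TGF-beta, had 28.2, 21.6 and 21.7 CPM in the 30 dpf testes and 30.5, 31.5, 37.4 and 18.4 CPM in the 25 dpf testes, against 3.73, 4.46 and 5.3 CPM in the 30 dpf ovaries and 8.15 and 6.85 CPM in the 25 dpf ovaries. Its separation ratio was 2.12, and both its highest testis and its highest ovary were from 25 dpf. ACVR2A, a type II receptor for activins, was at 54.4 to 69.5 CPM in testes, against 21.2 to 28.8 CPM in ovaries. These receptors sit at the cell surface, and 4 other members dampen the same pathway. SMAD6 (ENSDARG00000031763), which blocks BMP signals inside the cell, was at 53.5 to 75.6 CPM in testes, against 11.8 to 26.0 CPM in ovaries. The corepressor SKI was at 66.2 to 89.2 CPM in testes, against 11.6 to 30.7 CPM in ovaries. Its relative skib was at 30.9 to 38.6 CPM in testes, against 9.60 to 15.5 CPM in ovaries. Both corepressors had a narrow range in testes. CRIM1, a membrane protein that binds BMPs, was at 75.3 to 183 CPM in testes, against 11.2 to 34.4 CPM in ovaries. FSTL1 (ENSDARG00000039576), a secreted follistatin-like glycoprotein and the third most abundant member, was at 628 to 1240.1 CPM in testes, against 168 to 341 CPM in ovaries.

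Hedgehog signalling was represented by 2 co-receptors and a transcription factor. GLI3 (ENSDARG00000052131), the zinc finger factor at the end of the pathway, had 30.9, 21.8 and 22.8 CPM in the 30 dpf testes and 21.9, 21.0, 28.7 and 20.9 CPM in the 25 dpf testes, against 3.29, 7.36 and 9.72 CPM in the 30 dpf ovaries and 7.96 and 4.11 CPM in the 25 dpf ovaries. Its 2 highest testes were replicate 1 at 30 dpf and replicate 3 at 25 dpf, and the other 5 lay close together. The same 2 testes were the highest for CDON, a co-receptor that helps Patched bind the ligand, which was at 226 to 399 CPM in testes, against 60.5 to 103.4 CPM in ovaries. The co-receptor GAS1 (ENSDARG00000077298) was at 156 to 255 CPM in testes, against 45.1 to 72.0 CPM in ovaries. Notch and Wnt signalling had 1 member each in this group. RBPJ (ENSDARG00000052091), the DNA-binding protein of the Notch pathway, was at 50.1 to 77.4 CPM in testes, against 16.2 to 26.0 CPM in ovaries. KREMEN1, a receptor for the Wnt inhibitor Dickkopf, was at 18.8 to 44.3 CPM in testes, against 2.85 to 9.70 CPM in ovaries. The 13 signalling members summed to 1541 to 2459 CPM in testes, against 392 to 720.2 CPM in ovaries.

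The 8 adhesion and receptor genes included proteins of nerve, vessel and body cavity surfaces. APLP1 (ENSDARG00000098368), a relative of the amyloid precursor protein, had 97.7, 102.9 and 143 CPM in the 30 dpf testes and 67.9, 74.7, 93.1 and 75.9 CPM in the 25 dpf testes, against 10.5, 12.5 and 21.6 CPM in the 30 dpf ovaries and 23.1 and 16.2 CPM in the 25 dpf ovaries. Every testis at 30 dpf was above every testis at 25 dpf. EFNB2 (ENSDARG00000020164), the ephrin that marks arteries, had 58.6, 53.2 and 40.8 CPM in the 30 dpf testes and 40.8, 52.3, 63.6 and 39.2 CPM in the 25 dpf testes, against 13.6, 10.3 and 18.8 CPM in the 30 dpf ovaries and 15.7 and 20.2 CPM in the 25 dpf ovaries. For EFNB2 the ages of the testis overlapped. SEMA4C (ENSDARG00000079611), a membrane semaphorin, was at 38.7 to 61.1 CPM in testes, against 8.22 to 15.3 CPM in ovaries. PRICKLE1 (ENSDARG00000045694), a planar cell polarity protein, was sorted here rather than with the polarity or Wnt genes. It was at 29.4 to 71.6 CPM in testes, against 5.80 to 11.5 CPM in ovaries. The gene podxl encodes the sialic acid-rich coat protein of podocytes, vessels and the body cavity lining. It was the second most abundant member, at 866 to 1758 CPM in testes, against 324 to 467 CPM in ovaries. ITGA8, an integrin chain that binds fibronectin, was at 39.1 to 70.2 CPM in testes, against 13.1 to 16.5 CPM in ovaries. ITGA4, another such chain, was at 17.7 to 35.3 CPM in testes, against 4.24 to 7.24 CPM in ovaries. LRP1 (ENSDARG00000029146), an endocytic receptor for matrix proteases and lipoproteins, was at 64.7 to 139 CPM in testes, against 15.2 to 34.0 CPM in ovaries, and SNX17, which returns LRP1 to the cell surface in mammals and is counted with the trafficking genes, was at 95.8 to 144 CPM in testes, against 30.3 to 45.2 CPM in ovaries.

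Among the enzymes, MMEL1 had the largest ratio of means and the widest spread of all members. MMEL1 (ENSDARG00000105389) is a membrane peptidase of the neprilysin family that mice need for normal male fertility. It had 7.83, 118 and 173 CPM in the 30 dpf testes and 22.1, 33.6, 8.31 and 8.83 CPM in the 25 dpf testes, against 2.19, 2.01 and 0.442 CPM in the 30 dpf ovaries and 1.55 and 0.587 CPM in the 25 dpf ovaries. The 2 highest testes were those with high amh, and the lowest testis was replicate 1 at 30 dpf. The separation ratio was therefore 2.76, while the ratio of means was 22.97. The gene impa2, for an enzyme that releases inositol from its phosphate, was the member of lowest mean level. It was at 5.56 to 10.1 CPM in testes, against 0.391 to 1.94 CPM in ovaries, which rests on 26 to 54 counts in testes and 2 to 10 counts in ovaries.

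Hormone and lipid enzymes were also members. DIO2, which makes active thyroid hormone, was at 31.7 to 49.9 CPM in testes, against 3.95 to 16.3 CPM in ovaries. ENPP2 (autotaxin), which makes lysophosphatidic acid, was at 11.9 to 39.4 CPM in testes, against 3.52 to 5.82 CPM in ovaries. RDH8 (ENSDARG00000028048), a retinol dehydrogenase, was at 13.2 to 23.7 CPM in testes, against 4.39 to 5.74 CPM in ovaries. The carotenoid-cleaving enzyme gene bco2l was at 44.2 to 109 CPM in testes, against 11.6 to 23.1 CPM in ovaries. These levels were within the middle range of the members. ACHE, which breaks down acetylcholine, was at 35.5 to 112 CPM in testes, against 13.5 to 17.5 CPM in ovaries, and its highest testis was replicate 1 at 25 dpf, the testis with muscle RNA, where muscle is a tissue known for this enzyme. The part of muscle in that level was not tested. That the other 6 testes were all above the ovaries follows from the rule. ADA, an adenosine deaminase, was at 61.7 to 108 CPM in testes, against 18.001 to 28.5 CPM in ovaries. SLC29A1 (ENSDARG00000054447), a nucleoside transporter, was at 12.1 to 52.6 CPM in testes, against 1.77 to 5.24 CPM in ovaries. The cytochrome P450 genes cyp2ad2 and cyp2ad6 and the carboxylesterase gene ces2b have close copies between which reads could have been split. GALNT1, SLC38A10 and the ion channel gene hcn2b complete the group, and the 15 genes summed to 671 to 1109 CPM in testes, against 162 to 234 CPM in ovaries.

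The 14 kinase, cytoskeleton, polarity and trafficking genes had separation ratios of 1.84 to 2.33. NUAK1 (ENSDARG00000028676), a kinase related to the energy sensor AMPK, was at 26.4 to 53.0 CPM in testes, against 5.05 to 13.2 CPM in ovaries. HIPK3, a kinase of the homeodomain-interacting family, was at 28.0 to 49.9 CPM in testes, against 8.93 to 11.5 CPM in ovaries. A pair of linker proteins of intermediate filaments were among the more abundant genes of the group. The epiplakin gene eppk1 was at 98.5 to 235 CPM in testes, against 24.4 to 47.0 CPM in ovaries. The plectin gene plecb was at 87.5 to 113 CPM in testes, against 19.3 to 41.9 CPM in ovaries. Both belong to the plakin family, whose repeats can be hard to tell apart in counting. CDK15, a cyclin-dependent kinase, was at 5.63 to 16.1 CPM in testes, against 0.783 to 1.94 CPM in ovaries, and its testes at 30 dpf were all above those at 25 dpf. DAB2IP, micall1a, golim4a, FMNL2, CCDC85B, RAPGEF1, pard3bb, pitpnc1b and SNX17 were the others.

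Secreted proteins outside the matrix were few. ANGPTL4, an inhibitor of lipoprotein lipase, was at 282 to 466 CPM in testes, against 82.0 to 129 CPM in ovaries. C1QTNF2, of the C1q and tumour necrosis factor family, was at 17.3 to 51.1 CPM in testes, against 2.42 to 7.38 CPM in ovaries. The lectin gene itln1 was at 16.1 to 82.1 CPM in testes, against 1.37 to 7.73 CPM in ovaries, with replicate 2 at 30 dpf as its highest testis.

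Of the genes with another or unknown role, SPSB3 (ENSDARG00000077737), an adaptor of a ubiquitin ligase, was at 25.8 to 53.4 CPM in testes, against 4.501 to 9.60 CPM in ovaries. RNF24 (ENSDARG00000036965), a membrane protein with a RING finger, had 23.0, 30.8 and 46.8 CPM in the 30 dpf testes and 29.2, 12.8, 14.1 and 13.3 CPM in the 25 dpf testes, against 2.42, 3.35 and 4.20 CPM in the 30 dpf ovaries and 3.10 and 4.70 CPM in the 25 dpf ovaries. Replicates 2, 3 and 4 at 25 dpf were below the other 4 testes. The gene si:ch211-236l14.4 (ENSDARG00000062059) was at 14.4 to 50.3 CPM in testes, against 2.01 to 4.27 CPM in ovaries. The gene si:dkey-6n6.1 (ENSDARG00000062487) was at 75.9 to 195 CPM in testes, against 13.8 to 27.4 CPM in ovaries. No role is given for either in the sources used here. IFIH1, a sensor of viral double-stranded RNA, was at 27.1 to 53.3 CPM in testes, against 4.69 to 13.8 CPM in ovaries. The sestrin gene sesn3, induced in stress, was at 118 to 168 CPM in testes, against 39.95 to 62.9 CPM in ovaries. PAQR6, WSCD2, ARMC2, lix1l, rpz4, zgc:92242, si:ch73-61d6.3, si:ch73-138n13.1 and si:ch211-79k12.2 complete this group. Among the 4 genes without a symbol, ENSDARG00000113774 was at 27.9 to 51.4 CPM in testes, against 6.80 to 11.0 CPM in ovaries. ENSDARG00000105689 was at 10.2 to 20.1 CPM in testes, against 0.439 to 3.75 CPM in ovaries. ENSDARG00000101687 and ENSDARG00000107130 were the others, and the 4 summed to 75.1 to 112 CPM in testes, against 15.1 to 25.6 CPM in ovaries.

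Little set the last members apart from the next genes. The last 3 members were pitpnc1b with a separation ratio of 1.840, FSTL1 with 1.839 and ENSDARG00000107130 with 1.836. The next 3 genes were igf2b, an insulin-like growth factor, with 1.83, ctsf, a lysosomal protease, with 1.82, and aebp1b, a matrix-associated protein, with 1.81.

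Because each gonad helped to choose the members, the choice was repeated without each gonad in turn, and the gonad left out was then read for the 100 genes chosen without it. Across the 7 testes, 90 to 100 of the 100 genes were above every ovary in the testis left out, where 34.8% to 44.2% of all genes past the minimum were. Across the 5 ovaries, 92 to 100 of the 100 genes were below every testis in the ovary left out, where 30.6% to 47.8% of all genes were. The gonads of the other sex, which set the bar here, had themselves helped to choose the 100 genes. The shares over all genes had no such choice, so the shares do not compare like with like. The lowest counts were 90 in replicate 2 of the 25 dpf testes and 92 in replicate 3 of the 30 dpf ovaries. The list of genes also changed with the gonad left out. Without replicate 1 of the 25 dpf ovaries 58 of the members were chosen again, and without replicate 3 of the 30 dpf ovaries 69 were. Without replicates 4 and 2 of the 25 dpf testes 72 and 73 were, and without any other gonad 81 to 96.

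**Figure D3:**
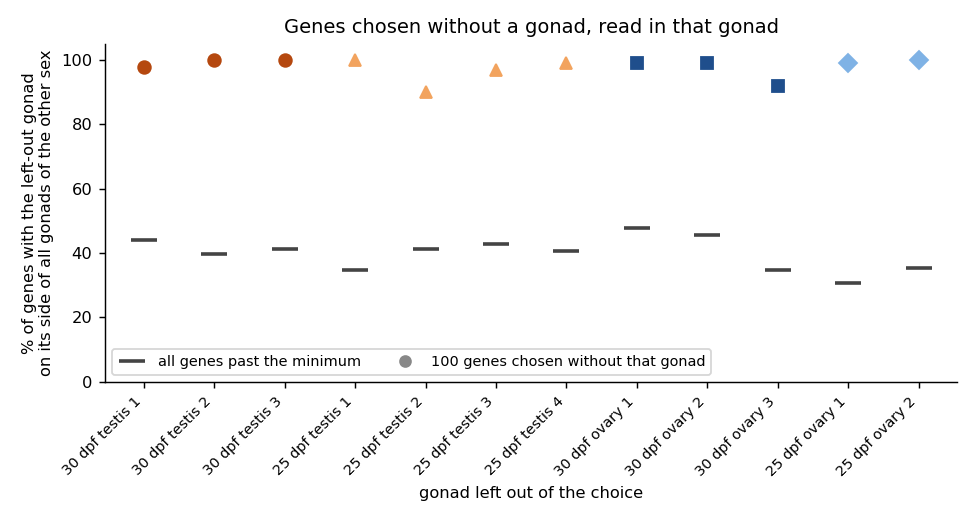
For each gonad left out of the choice (x axis), the percentage of the 100 genes chosen without it for which that gonad lay on its own side of all gonads of the other sex (coloured points), and the same percentage for all genes past the minimum (dashes). The points lie at 90% to 100% and the dashes at 30.6% to 47.8%. The gonads of the other sex had helped to choose the 100 genes.

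Gonads that stood apart were also left out together, in combinations chosen after the values had been seen. Without replicates 2 and 3 of the 30 dpf testes, those with high amh, 75 members were chosen again. For 97 of the 100 genes then chosen, both of these testes were above every ovary, where 33.2% of all genes were. Without replicates 1 and 2 of the 25 dpf testes, which held muscle, pancreas and liver RNA, 50 members were chosen again. For 82 of the 100 genes then chosen, both of these testes were above every ovary, where 27.0% of all genes were. In both cases the ovaries had helped to choose the genes. Replicate 4 of the 25 dpf testes, with 835 CPM of apoa2, was kept in both. Replicate 2 of the 30 dpf testes, with 918 CPM of prss1 and 1255 CPM of tfa, was kept when replicates 1 and 2 of the 25 dpf testes were left out. The testes with RNA of neighbouring tissues were thus not all left out together.

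Genes chosen at 1 age were then tested at the other, in gonads that had no part in the choice. The rule applied to the 6 gonads at 30 dpf gave 100 genes, 16 of them members, and 99 of these could be tested at 25 dpf. There 16 of the 99 were called higher in testes by edgeR at an adjusted p under 0.05, where 1.88% of all genes tested were called higher, or 346 genes. At an unadjusted p under 0.05 in either direction, 53 of the 99 passed, and 5287 of 18356 genes tested did. Here and below, all genes tested include genes that did not pass the minimum of the rule, which every chosen gene passed at the age of choice. DESeq2 called 48 of the 100 chosen genes higher, and 1226 of the 27144 genes it was run on. The log2 fold change was above 0 for 97 of the 99 genes, with a median of 1.32, and the median of all genes was 0.08. Without replicates 1 and 2 of the 25 dpf testes, 14 of the 91 genes that could be tested were called higher, where 144 of 17354 genes tested were. The median was 1.31 for the chosen genes and 0.04 for all genes tested. The rule applied to the 6 gonads at 25 dpf gave 100 genes, 30 of them members. Of the 99 that could be tested at 30 dpf, 54 were called higher in testes, where 19.3% of all genes tested were. At an unadjusted p under 0.05 in either direction, 61 of the 99 passed, and 8298 of 16631 genes tested did. For 88 of these 99 the log2 fold change was above 0, with a median of 1.60, and the median of all genes was 0.10. The 5 genes chosen at both ages were all members: abi3bpb, EDIL3, APLP1, wizb and mfap4.7.

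The rule did not use the difference between ages within a sex, but it took the extremes of each sex over both ages, so that genes with a large change with age were less likely to be chosen. The counts below describe genes chosen in that way. In testes, 30 against 25 dpf, no member was called by edgeR at an adjusted p under 0.05, where 1 of 19292 genes (0.00518%) was called. At an unadjusted p under 0.05 there were 13 members, and 13.0% of all genes passed the same threshold. DESeq2, run here and in the next comparisons on the 28113 genes with any count, called 3 members and 361 of all genes. The log2 fold change was above 0 for 67 members, with a median of 0.12. It was above 0 for 46.6% of all genes, with a median of -0.04. Every 30 dpf testis was above every 25 dpf testis for 9 members (APLP1, TSHZ2, CDK15, SKI, BHLHE40, ARMC2, zbtb4, znf516 and pitpnc1b), where this held for 6.79% of all genes past the minimum. Every 30 dpf testis was below every 25 dpf testis for pbx1a and PHF2, or 2 members, where this held for 5.96%.

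ARMC2 (ENSDARG00000022660), an armadillo repeat protein that mice need to build the sperm tail, came closest to a call between ages and is named for that value. It had 468, 520.1 and 722 CPM in the 30 dpf testes and 218, 266, 255 and 248 CPM in the 25 dpf testes, against 75.1, 113 and 106 CPM in the 30 dpf ovaries and 106 and 91.0 CPM in the 25 dpf ovaries. The 3 testes at 30 dpf were all above the 4 at 25 dpf, with a log2 fold change of 1.18 (SE 0.175) and an adjusted p of 0.07 by edgeR. Over 21 alternative settings its adjusted p ran from 1.2e-05 with DESeq2 to 0.26, and 5 of them called it. The carboxylesterase gene ces2b had 66.2, 139 and 276 CPM in the 30 dpf testes and 36.1, 77.8, 30.3 and 43.0 CPM in the 25 dpf testes. Its log2 fold change was 1.76 (SE 0.42) with an adjusted p of 0.18 by edgeR, or 0.0089 to 0.43 over the alternatives. The phosphatidylinositol transfer gene pitpnc1b had a log2 fold change of 0.75 (SE 0.21) and an adjusted p of 0.22 by edgeR, or 0.049 to 0.47 over the alternatives. MMEL1 had a log2 fold change of 2.43 (SE 0.82) with an adjusted p of 0.27 by edgeR. The values of abi3bpb, EDIL3 and FN1 were 0.34 (SE 0.28), 0.56 (SE 0.25) and 0.54 (SE 0.41). Both testes with high amh are from 30 dpf. Replicate 1 at 30 dpf, with low amh, was above every 25 dpf testis for ARMC2 and was the lowest of all testes for MMEL1.

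In ovaries, 30 against 25 dpf, no member was called by edgeR, where 0% of all genes were, and DESeq2 called 0 members and 160 of all genes. At an unadjusted p under 0.05 there were 8 members, where 11.5% of all genes passed. The members' median log2 fold change was -0.09, and 42 members were above 0. The median of all genes was 0.02, and 51.4% of them were above 0. Every 30 dpf ovary was above every 25 dpf ovary for 3 members, SPSB3, PAQR6 and ACVR2A, where this held for 11.1% of all genes past the minimum. The reverse order held for 17 members and for 26.2% of all genes.

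Whether the testis against ovary difference depended on age was tested with an interaction term, in genes whose gap the rule required to hold at both ages. No member was called by edgeR, where 0% of all genes were, and DESeq2 called 0 members and 68 of all genes. There were 8 members with an unadjusted p under 0.05, where 10.1% of all genes had one. The interaction was above 0 for 70 members, with a median of 0.22 on the log2 scale. It was above 0 for 47.3% of all genes, with a median of -0.05.

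**Figure D4:**
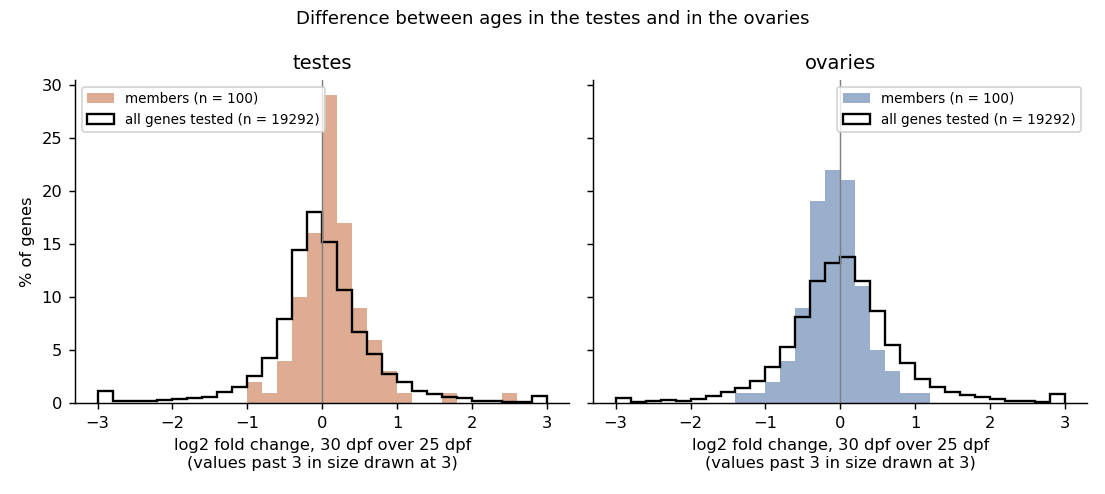
Log2 fold change of 30 over 25 dpf in testes (left) and ovaries (right) for the 100 members (filled) and all 19292 genes tested (line), as a percentage of genes in each bin. The members' medians lie at 0.12 in testes and -0.09 in ovaries, against -0.04 and 0.02 over all genes, and no member was called at an adjusted p under 0.05.

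Other genes that carry a member's symbol were not chosen by the rule. Any of them with at least 5 CPM in every testis had been a candidate, so the calls below are not independent of the choice. A symbol borne by more than 1 zebrafish gene was found for 18 members, and 19 further genes bear these symbols. Of the 17 that could be tested, 8 were called higher in testes and 1 lower by edgeR, where 21.3% of all genes were called higher, with a median log2 fold change of 0.73. The second FN1 gene (ENSDARG00000019815) was at 84.6 to 172 CPM in testes, against 52.2 to 66.7 CPM in ovaries. Its log2 fold change was 0.87 (SE 0.19, edgeR adjusted p = 0.004), so that it was higher in testes by a smaller step than the member FN1. The second LRP1 gene had a log2 fold change of 1.72 (SE 0.33, edgeR adjusted p = 0.0019), and the second NUAK1 gene had 1.635 (SE 0.26, edgeR adjusted p = 0.0006). The partners of EFEMP2, golim4a, BMPR2, EFNB2 and FSTL1 were also called higher. The second RAPGEF1 gene was lower in testes, with -0.94 (SE 0.21, edgeR adjusted p = 0.0049). The second TGFBR1 and GAS1 genes were not called, with -0.20 (SE 0.205) and 0.01 (SE 0.18). Without replicates 2 and 3 of the 30 dpf testes 6 of the 17 were called higher, and without replicates 1 and 2 of the 25 dpf testes 8 were.

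Genes that are not members were also counted in 18 lists of tissues and functions, which hold 510 genes of the table. The lists were chosen with earlier results of these data known. Any list gene with at least 5 CPM in every testis had been a candidate of the rule. The calls in the lists are therefore not independent of the choice of members. The lists include 8 members: FN1, EFEMP2, COL5A1 and lama4 among matrix genes, BMPR2, TGFBR1 and GLI3 among growth factor genes, and EFNB2 among vessel genes. Most of the other matrix genes tested were called higher in testes. Of 54 further collagen and matrix genes tested, 38 were called higher in testes and 1 lower, with a median log2 fold change of 1.11. The small leucine-rich proteoglycan OGN was at 8.07 to 46.9 CPM in testes, against 0.663 to 4.27 CPM in ovaries (log2 fold change 3.08, SE 0.54, edgeR adjusted p = 0.001). PRELP, of the same family, was at 7.69 to 41.5 CPM in testes, against 2.52 to 8.78 CPM in ovaries (log2 fold change 1.85, SE 0.41, edgeR adjusted p = 0.0041). LUM, another one, was at 1.12 to 98.2 CPM in testes, against 4.02 to 24.1 CPM in ovaries, so that its groups overlapped through replicate 2 at 25 dpf. Among 27 matrix proteases, inhibitors and crosslinkers, 15 were called higher and 0 lower. The membrane protease MMP14 was at 37.3 to 70.8 CPM in testes, against 5.93 to 21.9 CPM in ovaries (log2 fold change 1.89, SE 0.30, edgeR adjusted p = 0.00063). The collagen crosslinker loxl2a was at 31.4 to 84.6 CPM in testes, against 2.63 to 28.3 CPM in ovaries, and the protease mmp11b at 8.52 to 42.3 CPM in testes, against 1.54 to 6.41 CPM in ovaries. Without replicates 2 and 3 of the 30 dpf testes 29 of the matrix genes and 10 of the protease list were called higher, and without replicates 1 and 2 of the 25 dpf testes 39 and 16 were.

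**Figure D5:**
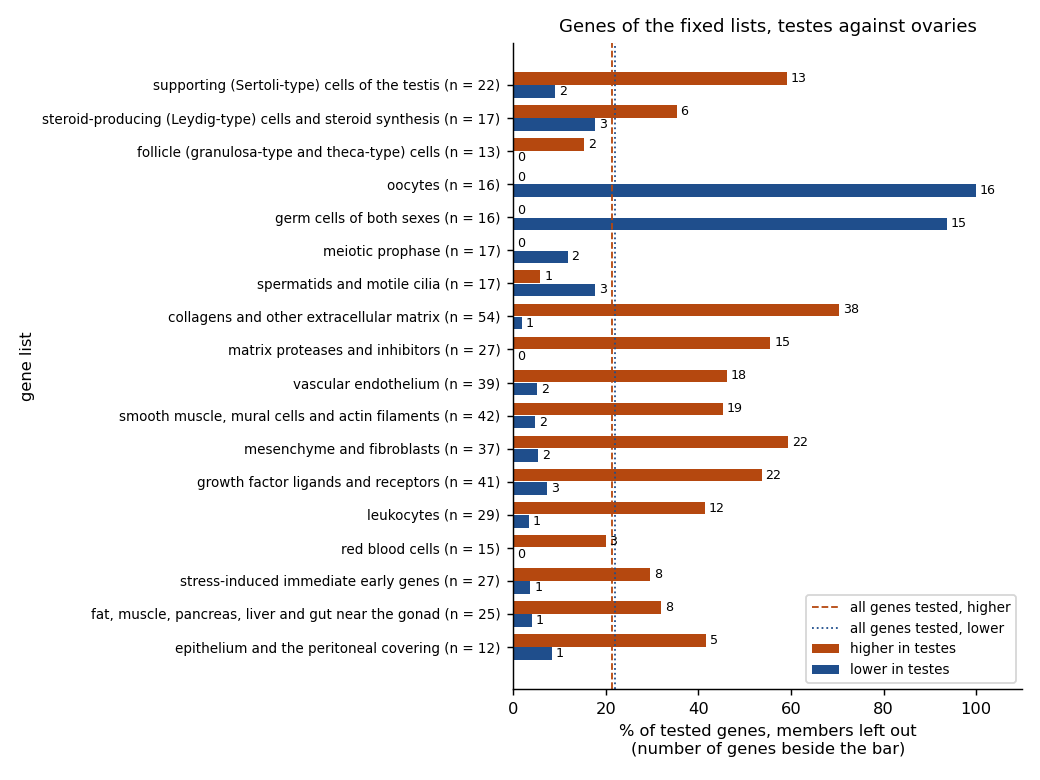
For each of 18 gene lists (rows), the percentage of its tested genes, members left out, that were called higher in testes (upper bar) or lower in testes (lower bar) at an adjusted p under 0.05, with the number of genes beside each bar and dashed and dotted lines at the shares over all genes (21.3% higher, 21.9% lower). The collagen and matrix list had 38 of 54 genes higher in testes, and the oocyte list had 16 of 16 lower. The lists were chosen with earlier results of these data known, and their calls are not independent of the choice of members.

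Most mesenchyme and growth factor genes tested were called higher in testes. Of 37 mesenchyme genes, 22 were called higher in testes and 2 lower. The mesenchymal factor twist1b was at 2.24 to 18.1 CPM in testes, against 0.970 to 3.31 CPM in ovaries. NR2F1, a nuclear receptor, was lower in testes, at 0.563 to 9.35 CPM in testes, against 17.4 to 25.2 CPM in ovaries (log2 fold change -3.07, SE 0.55, edgeR adjusted p = 0.0012). Of 41 growth factor genes, 22 were called higher and 3 lower. PDGFA (ENSDARG00000110069), a ligand for mesenchymal cells, was at 27.5 to 61.1 CPM in testes, against 3.07 to 14.8 CPM in ovaries (log2 fold change 2.45, SE 0.27, edgeR adjusted p = 6.8e-05). IGF1, an insulin-like growth factor, was at 1.72 to 5.42 CPM in testes, against 0 to 1.94 CPM in ovaries. The receptor gene kitb was lower in testes, at 0.188 to 5.95 CPM in testes, against 2.85 to 12.3 CPM in ovaries.

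Vessel and contractile genes were also more often higher than lower. Of 39 endothelial genes, 18 were called higher in testes and 2 lower. The tight junction gene CLDN5 (ENSDARG00000043716) was at 61.4 to 114 CPM in testes, against 5.27 to 52.6 CPM in ovaries, and plvapa, for a protein of vessel pores, at 13.1 to 126 CPM in testes, against 7.04 to 38.4 CPM in ovaries. The scavenger receptor gene stab2 was lower in testes, at 0.188 to 4.47 CPM in testes, against 1.104 to 65.8 CPM in ovaries. Of 42 smooth muscle and actin genes, 19 were called higher and 2 lower. The mural cell receptor PDGFRB was at 38.8 to 133 CPM in testes, against 22.7 to 35.1 CPM in ovaries (log2 fold change 1.49, SE 0.23, edgeR adjusted p = 0.00051). PDLIM3 was at 7.27 to 33.2 CPM in testes, against 0.223 to 10.4 CPM in ovaries, and the actin-binding gene cald1b at 0.750 to 13.9 CPM in testes, against 0.669 to 1.75 CPM in ovaries. Without replicates 2 and 3 of the 30 dpf testes 17 mesenchyme, 20 growth factor, 12 endothelial and 10 smooth muscle genes were called higher.

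The lists of supporting cell genes of the testis, steroid genes and follicle cell genes differed from each other. Their median log2 fold changes were 1.35, 0.66 and -0.07 in that order. Of 22 supporting cell genes of the testis, 13 were called higher and 2 lower, and without replicates 2 and 3 of the 30 dpf testes 9 were called higher. Both activin subunit genes under the symbol INHBA were called higher. The one with the larger fold change (ENSDARG00000024759) was at 0.831 to 111 CPM in testes, against 0.391 to 1.55 CPM in ovaries (log2 fold change 4.72, SE 0.87, edgeR adjusted p = 0.0014), and its groups overlapped through replicate 3 at 25 dpf. The other (ENSDARG00000012671) was at 16.2 to 86.1 CPM in testes, against 1.98 to 10.4 CPM in ovaries (log2 fold change 2.46, SE 0.41, edgeR adjusted p = 0.00075). NR5A1 (ENSDARG00000103176), a factor of steroid-producing tissue, was at 42.0 to 163 CPM in testes, against 9 to 24.7 CPM in ovaries (log2 fold change 2.27, SE 0.37, edgeR adjusted p = 0.00071). Of 17 steroid genes, 6 were called higher, among them cyp11c1 (log2 fold change 5.74, SE 0.98, edgeR adjusted p = 0.00091), and 3 lower. The lower ones included hsd3b2 (log2 fold change -5.45, SE 0.68, edgeR adjusted p = 0.00014) and CYP11A1, the side-chain cleavage enzyme of cholesterol, at 1.12 to 16.3 CPM in testes, against 60.4 to 817 CPM in ovaries. Which cells of the ovary held the RNA of hsd3b2 and CYP11A1 was not tested. Of 13 follicle cell genes, 2 estrogen receptor genes under the symbol ESR2 were called higher and 0 lower. Without replicates 2 and 3 of the 30 dpf testes, 4 steroid genes were called higher and 4 lower.

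The lists of oocyte genes and of germ cell genes ran the other way. All 16 oocyte genes tested were called lower in testes. Zp2.1 had a log2 fold change of -5.82 (SE 0.80), zp3.2 -5.76 (SE 0.94) and zp3 -5.15 (SE 1.06). Of 16 germ cell genes, 15 were called lower and 0 higher. NANOS3, which germ cells need to survive, was at 4.25 to 13.1 CPM in testes, against 27.0 to 76.4 CPM in ovaries (log2 fold change -2.54, SE 0.31, edgeR adjusted p = 0.00013). The transgene that every fish carried is named for a nos3 (nanos3) UTR, and the part of its RNA in the NANOS3 counts was not tested. Ca15b, a germ plasm gene of zebrafish, was at 0.650 to 74.0 CPM in testes, against 247 to 987 CPM in ovaries. The 17 meiotic genes had a median log2 fold change of 0.44, where that of all genes was 0.13. They summed to 908 to 1372 CPM in testes, against 495 to 1213 CPM in ovaries. Few of them were called, 0 higher and 2 lower of 17, or 1 higher and 1 lower with upper-quartile scaling. Those called lower were spo11, which makes the breaks that start recombination, at 17.8 to 41.8 CPM in testes, against 34.6 to 66.5 CPM in ovaries, and MND1 at 69.5 to 158 CPM in testes, against 95.7 to 172 CPM in ovaries. Of 17 sperm and cilia genes, CFAP45 was called higher (log2 fold change 1.36, SE 0.25, edgeR adjusted p = 0.0013) and 3 were lower, or 2 higher and 2 lower with upper-quartile scaling. SPATA18, the most extreme, was at 0.188 to 18.3 CPM in testes, against 72.7 to 217 CPM in ovaries.

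Of the lists that mark other cells, the leukocyte list had 12 of 29 genes called higher in testes and 1 lower. The complement gene c1qb was at 2.91 to 40.3 CPM in testes, against 1.56 to 4.46 CPM in ovaries, and the protease ctss2.1, lower in testes, at 22.7 to 124 CPM in testes, against 907 to 1744 CPM in ovaries (log2 fold change -4.24, SE 0.40, edgeR adjusted p = 4.2e-05). Summed over the leukocyte list the level was 1268 to 2735 CPM in testes, against 1898 to 2784 CPM in ovaries, and the lysozyme gene lyz was at 0 in every gonad. This sum leans on ctss2.1 in the ovaries. It gave 1553 of 2784 CPM in replicate 3 of the 30 dpf ovaries, the highest ovary. In replicate 1 of the 30 dpf testes, the highest testis, it gave 72.2 of 2735 CPM. Of 15 red blood cell genes, RHAG, TAL1 and cahz were called higher and 0 lower. Their list summed to 532 to 3824 CPM in testes, against 249 to 685 CPM in ovaries, with the highest value in replicate 2 at 30 dpf. With replicates 2 and 3 of the 30 dpf testes left out, 8 leukocyte genes and 1 red blood cell gene were called higher. Of 27 immediate early genes, 8 were called higher, and BTG2 alone was lower. FOSL2 was at 12.8 to 23.1 CPM in testes, against 2.85 to 9.12 CPM in ovaries, and klf2a was at 3.94 to 14.4 CPM in testes, against 0.978 to 4.46 CPM in ovaries.

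Of 25 neighbour tissue genes tested, 8 were called higher in testes and 1 lower. The transferrin gene tfa was at 103.2 to 2810.0 CPM in testes with a median of 368 CPM, against 10.8 to 144 CPM in ovaries with a median of 63.5 CPM. The muscle gene pvalb1 was at 53.9 to 4076 CPM in testes with a median of 85.8 CPM, against 5.71 to 129.6 CPM in ovaries with a median of 13.0 CPM. The apolipoprotein gene apoa1a was at 4.06 to 93.6 CPM in testes with a median of 8.89 CPM, against 0.659 to 11.0 CPM in ovaries with a median of 1.17 CPM. In each of them the groups overlapped. With replicates 2 and 3 of the 30 dpf testes left out 2 of this list were called higher, and without replicates 1 and 2 of the 25 dpf testes 7 were. Of 12 epithelial and body cavity lining genes, 5 were called higher, among them lgals2b and krt18b, and cldn7b was lower, and without replicates 2 and 3 of the 30 dpf testes 3 were called higher. No gene of the 18 lists was called between ages by edgeR in either sex.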

How the data were processed

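PolyA+ RNA of 12 single gonads (7 testes, 5 ovaries) was sequenced after cDNA amplification. The values are read counts per gene as deposited by the authors, not normalized. The submitters' processing notes list FastQC 0.11.8, MultiQC 0.9, HISAT2 2.0.5, SAMtools 1.5, Picard, HTSeq 0.9.1, Ensembl 96 and the GRCz11 build. The study's description of juvenile gonads gives testes as small and ovaries as big, and the count columns, named small and big with an age and a number, were read so; the number was taken as the replicate number. Reads from near-identical gene copies may have been split or lost in counting, and the study's methods give removal of duplicate reads before counting and counting of the reverse strand only.

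CPM was the count divided by the column sum (4471588 to 5331223) and scaled. Gene symbols came from a reference table by Ensembl ID (96 of 100 members), and several zebrafish genes can share a symbol. No genome of the build was used, so no positions or sequences are given. Counting error limits members of low level most. Floors of 3 counts cover counting error only.

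Counts were tested with edgeR 4.0.16 (R 4.3.3) by the quasi-likelihood test, with filterByExpr (19292 genes kept), TMM scaling, 4 group means over all 12 gonads and Benjamini-Hochberg adjusted p-values, threshold 0.05. Contrasts were testes over ovaries, 30 over 25 dpf within each sex, and their interaction. Genes chosen at 1 age were tested with a fit of the other age's gonads alone. Each sample was 1 gonad, so p-values measure the spread between these gonads. The scripts were tested on simulated data. Tables and figures were made in Python 3.11.15 with pandas 2.3.3, numpy 2.4.6 and matplotlib 3.10.9.

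Named were the 20 members of largest ratio, members in a list, members called between ages, the highest and lowest members, the last 3 members and the next 3 genes, up to 3 called genes of largest fold change per list, and the tissue markers. One gene that this rule names is not reported here. The 18 lists held 514 symbols, of which 440 matched 510 genes. They cover supporting cells of testis and ovary, steroid cells, oocytes, germ cells, meiosis, spermatids and cilia, matrix, matrix proteases, vessels, smooth muscle, mesenchyme, growth factors, leukocytes, red blood cells, immediate early genes, neighbouring tissues and epithelium. The members and lists were chosen with earlier results of these data known. Alternatives were DESeq2 1.42.0, other scalings, filters and dispersions, a replicate block, leaving out each gonad, and other forms of the rule. Leaving out pairs of testes that stood apart was added after the data had been seen.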

Additional observations from a re-analysis of the deposited data

Results flagged for a closer look

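In the 25 dpf testes, the only group of 4 gonads, the levels of 80 named genes and sums were screened for a gonad far from the other 3. Of the 80, 9 had such a gap. The threshold is passed by about 1 in 20 sets of 4 independent, normally distributed values. CPM values need not be so distributed, and the 80 share the same 4 gonads. No excess over chance is therefore read from the 9. No cause was tested for any of them.

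Of the members, RNF24 had 29.222 CPM in replicate 1, against 12.755 to 14.127 CPM in the other 3. BMPR2 had 96.226 CPM in replicate 2, against 55.866 to 60.87 CPM. GLI3 had 28.669 CPM in replicate 3, against 20.934 to 21.917 CPM. All of these values were above the ovaries, as were those of the other 3 testes, which the rule requires of every member.

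Replicate 1, which held muscle RNA, had 4075.621 CPM of the muscle gene pvalb1, against 61.286 to 151.185 CPM in the other 3, and the lowest level of the sperm tail gene odf3l2a, 30.941 CPM against 54.159 to 56.272 CPM. Replicate 2, which held pancreas and liver RNA, had the highest level of the apolipoprotein gene apoa1a, 93.6 CPM against 5.762 to 11.426 CPM. It was also highest for the galectin gene lgals2b, with 37.327 CPM against 2.497 to 3.008 CPM, and for the germ cell gene TDRD1, with 6.19 CPM against 3.073 to 3.532 CPM. Replicate 3 had 5.817 CPM of the macrophage receptor gene csf1rb, against 1.876 to 2.497 CPM.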

How the results depend on the processing

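Of the values recomputed under the alternatives, none with a call reversed, but the balance of calls between the sexes turned with upper-quartile scaling (5057 genes higher and 3530 lower in testes, against 4108 higher and 4223 lower with TMM). Testes against ovaries, 4108 genes were called higher; 2668 were without replicates 2 and 3 of the 30 dpf testes, and 2139 (without replicate 2 of the 25 dpf ovaries) to 4245 when 1 gonad was left out. In testes, 30 against 25 dpf, 1 gene was called, and 0 with upper-quartile scaling or with the testes alone in the model, 7 with no filter, 12 with at least 10 counts in every gonad, 7 with robust dispersion, 361 with DESeq2, 11 without replicates 1 and 2 of the 25 dpf testes, and 0 to 70 when 1 gonad was left out (70 without replicate 1 of the 30 dpf testes). In ovaries 0 were called, 160 with DESeq2 and 0 to 1 with 1 gonad left out. For dependence on age 0 were called, 1 each with no filter, at least 10 counts and robust dispersion, 68 with DESeq2 and 0 to 3 with 1 gonad left out. Members called between ages of the testis numbered 0, or 1 with each of those filters and robust dispersion, 3 with DESeq2 and 0 to 2 with 1 gonad left out. Of the genes chosen at 30 dpf, 16 of 99 were called at 25 dpf, where 1.88% of all genes were. With DESeq2 48 of 100 were, where 1226 of 27144 genes were.

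The rule kept 87 members with TMM-scaled CPM, 95 and 68 with minimums of 1 and 20 CPM, 94 and 68 with 0.1 and 10 CPM added, 19 with means in place of extremes, 16 and 30 from the gonads of 30 and 25 dpf alone, 50 without replicates 1 and 2 of the 25 dpf testes, and 58 (without replicate 1 of the 25 dpf ovaries) to 96 with 1 gonad left out. The separation ratios were smaller with TMM-scaled CPM. The largest was 3.46 in place of 3.84, and the smallest of the 100 genes then chosen was 1.65 in place of 1.84. The causes of these shifts were not tested. Of 52 list genes named by their fold change, 20 lost their call in at least 1 alternative.

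No pairing of the gonads by replicate number was seen. Over 15 same-numbered pairs the correlation of deviations was -0.22 to 0.14, with a mean of -0.0046. It was taken over all genes tested, with deviations from the means of small groups, so it cannot exclude a pairing that touches few genes. With the replicate block, 3328 genes were called higher in testes and 3658 lower, and 0 between ages of the testis.

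Each group held 2 to 4 gonads, and members near 5 CPM rest on few counts.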

Other observations

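The germ cell gene TDRD1, which acts in the piRNA pathway, had a high and a low range of levels. It had 404, 2.99 and 3.47 CPM in the 30 dpf testes and 3.22, 6.19, 3.53 and 3.07 CPM in the 25 dpf testes, against 719.8, 222 and 7.95 CPM in the 30 dpf ovaries and 495 and 7.24 CPM in the 25 dpf ovaries. Replicate 1 of the 30 dpf testes and 3 of the 5 ovaries were at 222 CPM or more, and the other 8 gonads were at 7.95 CPM or less. TDRD1 was called lower in testes (log2 fold change -3.85, SE 1.35, edgeR adjusted p = 0.038), and 6 of 7 testes were below every ovary, but its adjusted p ranged between 0.0043 and 0.47 over the alternatives, with the highest value without replicate 1 of the 25 dpf ovaries. DDX4, which marks germ cells, was at 304 to 439 CPM in testes, against 465 to 771 CPM in ovaries. No cause was tested.

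The lipoprotein lipase gene LPL (ENSDARG00000087697) had 1066, 1212 and 1575 CPM in the 30 dpf testes and 260.2, 51.8, 399 and 653 CPM in the 25 dpf testes, against 244, 154 and 249 CPM in the 30 dpf ovaries and 332 and 205 CPM in the 25 dpf ovaries. All 3 testes at 30 dpf were above every other gonad, and replicate 2 at 25 dpf was below every ovary. ANGPTL4, a member whose product inhibits this lipase, was at 282 to 466 CPM in testes, against 82.0 to 129 CPM in ovaries. Its sexes did not overlap, as the rule requires.

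When the rule used the mean of each sex in place of the extremes, the first gene was atp2a1l, with a ratio of means of 58.7, and 19 members were chosen. When it used the 30 dpf gonads alone, the first gene was cyp11c1, with a separation ratio of 16.5.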
